A study of Rattus norvegicus with 21 samples.

Results

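The genes that copy chromosomal DNA were described in INS-1 832/13 cells, a line that makes insulin and was grown out of a rat insulinoma, a tumour of pancreatic beta cells. They are 49 genes taken by symbol from the 32750 rows of the mRNA table, with 10 normalized counts set as the minimum mean over the 9 mRNA libraries, and all 49 met that minimum. Their means over the libraries ran from 312 to 16722 normalized counts. Messenger RNA was sequenced in 5 libraries of cells exposed for 24 h to 1 µM inorganic arsenic (iAs) and in 4 libraries of untreated cells. Small RNA was sequenced in 3 libraries each of cells exposed for 24 h to 1 µM iAs, 5 µM cadmium (Cd) or 25 µM manganese (Mn) and of untreated cells. Cells of every group were plated 24 h before the exposure, and none carried a genetic change that the labels name. The line is 1 transformed and dividing cell line, so it stands for beta cells only in part, and the labels leave unsaid whether replicate libraries come from separate cultures. The p-values therefore measure the spread between these libraries, which may be technical.

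Chromosome replication begins when the origin recognition complex, CDC6 and CDT1 load the MCM helicase onto DNA in G1, a step called licensing that geminin restrains later in the cycle. At the start of S phase the kinase CDC7 with its partner DBF4 and the cyclin-dependent kinases turn the loaded helicase into an active one by recruiting CDC45 and the GINS complex. DNA polymerases alpha, delta and epsilon then copy the strands with the sliding clamp PCNA, its loader RFC and the single-strand binding protein RPA, and ribonucleotide reductase and related enzymes supply the deoxynucleotides. In many cell types transcription factors of the E2F family drive most of these genes together in late G1, so that their mRNA levels follow the share of dividing cells.

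Some facts of the libraries bear on every result below. The summed values were 51009800 to 55869200 normalized counts per mRNA library, and the smallest steps in their values put the depth at about 44411400 to 65870900 reads. The label gives the tissue as liver, but the insulin gene Ins1 was at 1508060 ± 216854 normalized counts in the iAs libraries and 1811310 ± 252883 in the untreated libraries (SD, n = 5 and 4), and the hepatocyte gene Alb was at 0 in 4 of 5 iAs libraries and in all 4 untreated libraries. Hmox1 encodes heme oxygenase and is a textbook target induced by arsenic. It was at 1739 ± 465 normalized counts in the libraries labelled iAs and 14132 ± 1727 in those labelled untreated. The metallothionein gene Mt1 was also lower in the libraries labelled iAs. Both belong to a list of metal and oxidant response genes. All 9 tested genes of that list had negative log2 differences, iAs minus untreated, with a median of -0.82. In that list 66.7% were called lower and none higher, against 14.9% lower among all genes tested. This goes against the direction the labels lead one to look for, so each direction below holds only as far as the labels do, and "iAs" and "untreated" name the labelled groups. All iAs mRNA libraries were run on lane 4 and all untreated ones on lane 3, so lane and exposure cannot be told apart. Markers of other cell types were low beside Ins1, and their part in the results was not tested. In all, 12 hepatocyte markers summed to between 1398 and 1843 normalized counts in the iAs libraries and between 2293 and 2820 in the untreated libraries (6 tested, 3 lower). A set of 11 fibroblast, endothelial and immune markers summed to between 400 and 501 in the iAs libraries and between 487 and 612 in the untreated libraries (5 tested, 1 higher and 2 lower), and 8 acinar and duct markers to between 468 and 638 in the iAs libraries and between 197 and 309 in the untreated libraries (2 tested, 1 higher and 1 lower). Of these markers, only Cyp2e1, Dcn, Ptprc, Prss1, Cpa1 and Cela1 were at 0 in all 9 libraries, and the others were above 0 in some library. The 2 acinar and duct markers tested had log2 differences of 2.40 and -0.57, iAs minus untreated.

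The replication genes differed little between the groups, with a few members standing well above the rest. In limma's moderated test across 14410 genes with Benjamini-Hochberg adjustment and a threshold of 0.05, 12 of the 49 members were higher in the iAs libraries, none was lower and 37 did not pass, and 17 members had an unadjusted p under 0.05. That is 24.5% of the members called, while among all genes tested 30.0% were called in either direction, 15.1% higher and 14.9% lower. For 10 members every iAs library lay above every untreated library, and 13.0% of all genes tested had that arrangement. The median log2 difference of the 49 members, iAs minus untreated, was 0.09 on the log2(normalized count + 1) scale, against -0.00070 over all genes tested. Of the members, 38 were positive and 11 negative, and the differences spanned -0.18 to 0.91. Mcm7 and Cdc7 exceeded a 1.5-fold difference, and the other 10 called members did not. Of all 14410 genes tested, 564 were called higher and exceeded 1.5-fold. In whole cultures, more cells in S phase and more of an mRNA per cell cannot be told apart.

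**Figure D1:**
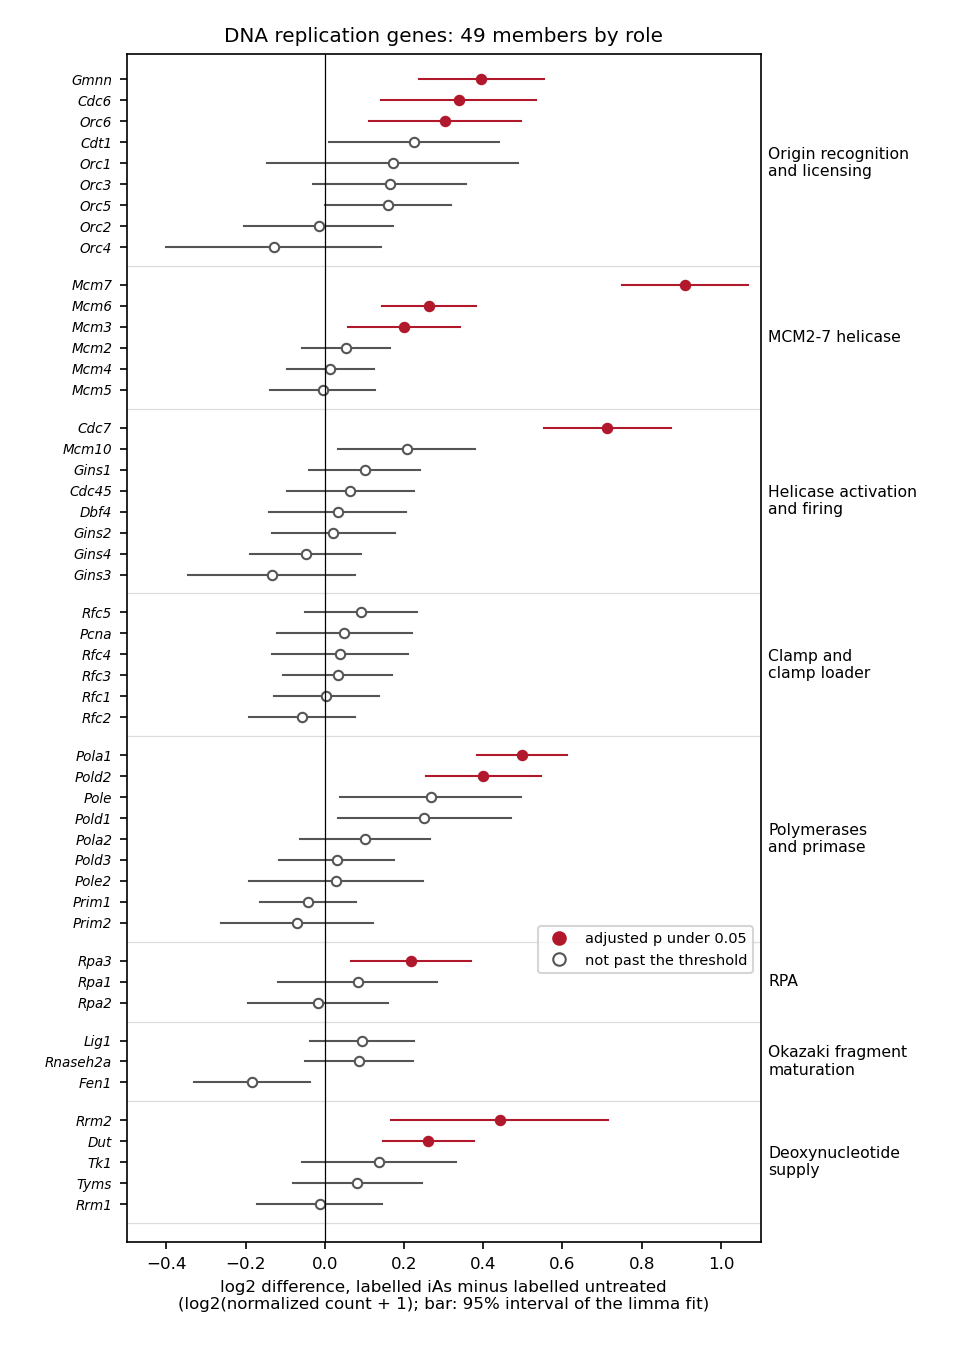
Log2 difference (x axis, libraries labelled iAs minus libraries labelled untreated) with its 95% interval for each of the 49 replication genes, grouped by role down the page; filled red points have an adjusted p under 0.05. The 12 filled points all lie to the right of 0, Mcm7 at 0.91 and Cdc7 at 0.71 stand furthest out, and the clamp and clamp loader hold no filled point.

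The libraries of a group did not sit at 1 level for these genes. Untreated replicate 2 was the lowest untreated library for 31 of the 49 members and lay above the untreated mean for 4 of them, with a median deviation of -0.12 on the log2 scale. Untreated replicate 1 was the highest untreated library for 26 members. Among the iAs libraries, replicate 2 was the highest for 18 members and replicate 4 the lowest for 18. The median member deviated from the untreated mean by 0.11, 0.13, 0.16, 0.02 and 0.07 in iAs replicates 1 to 5. Without untreated replicate 2, 9 members were higher and 1, Fen1, was lower, and the median difference was 0.04. Over all genes tested, leaving out that library gave 2061 higher, or 14.3%, and 2009 lower, against 2181 and 2140 with it. Within a group the median SD of a member's log2 values was 0.10 over the iAs libraries and 0.12 over the untreated libraries. For all genes tested it was 0.14 and 0.14. These SDs were not matched for expression level: the lowest member mean was 312 normalized counts, while genes were tested from a mean of 10.

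**Figure D2:**
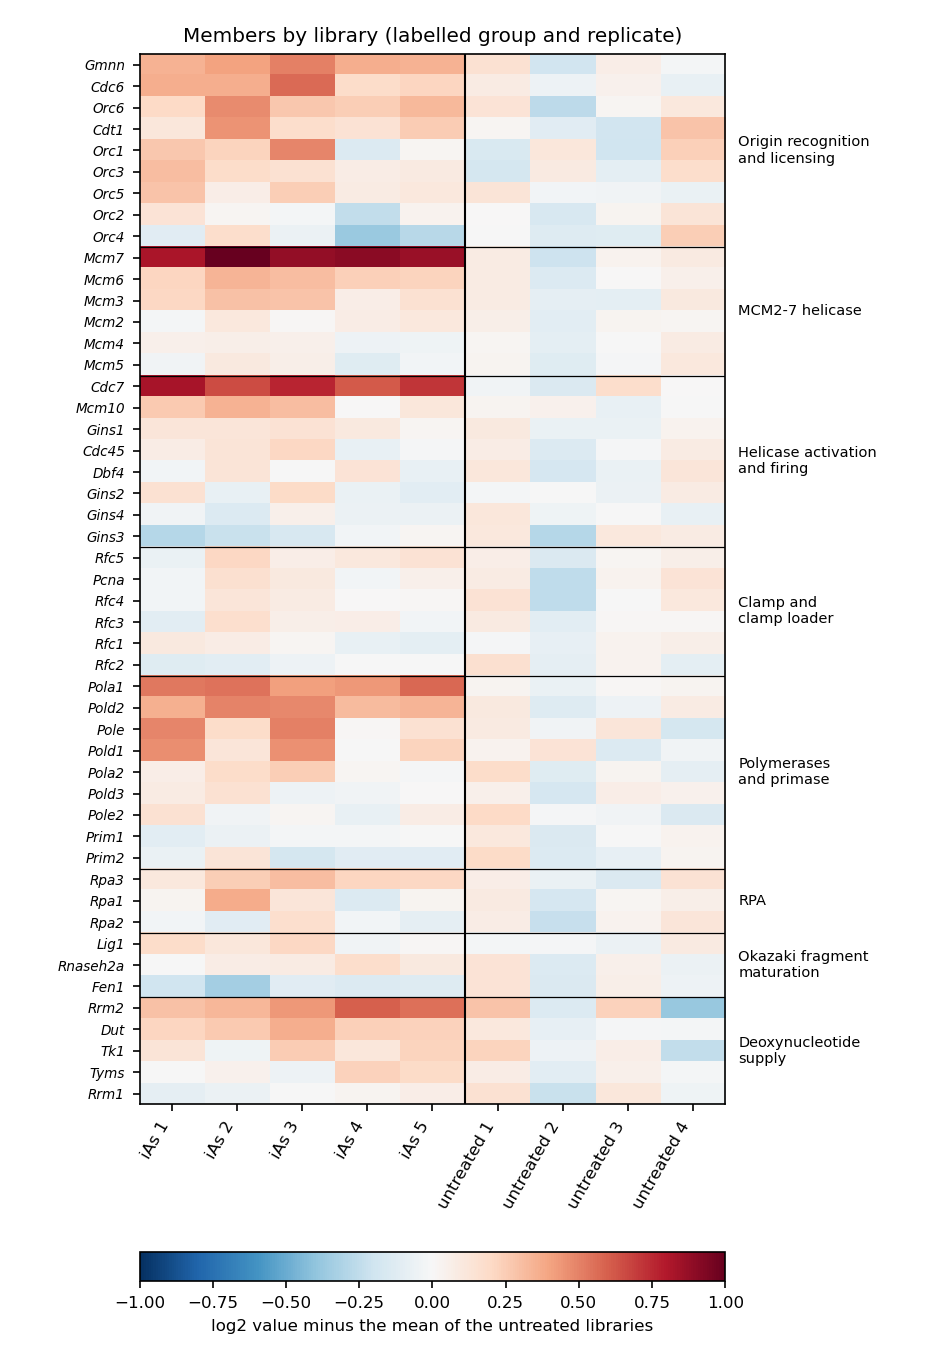
Log2 value of each replication gene (rows, grouped by role) in each library (columns, 5 iAs libraries left of the black line and 4 untreated libraries right of it), as the deviation from the mean of the untreated libraries. Mcm7, Cdc7 and Pola1 are red in all 5 iAs columns, and untreated replicate 2 is blue for most members.

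The promoters show what the members have in common apart from their levels. RefSeq's table for the rat assembly GRCr8 held 43 promoters of 42 members, each 300 bases long with 250 before the annotated start and 50 after it. Mcm4, Orc1, Gins4, Rpa3, Orc4, Rrm2 and Cdc6 had no entry. Letters of the E2F type (TTTCGCGC, TTTGGCGC, TTTCCCGC or TTTGGCGG, on either strand) occurred in 24 of the 43 member promoters, or 55.8%, against 2.18% of all 33469 promoters and 2.87% of those of protein-coding genes. They occurred in 7 of the 10 promoters of members called higher and in 17 of the 33 promoters of members not called, so both kinds of member carried them. CCAAT, the box read by NF-Y, occurred in 51.2% of member promoters, against 37.5% of all promoters and 37.96% of those of protein-coding genes. GGGCGG, the box read by SP1, occurred in 62.8% of member promoters, against 33.1% of all and 41.8% of protein-coding ones. Member promoters were also richer in G and C, at a median of 60% against 55% in protein-coding ones. The TTTGAA letters of the cell cycle homology region occurred in 14.0% of member promoters, against 18.3% of all and 17.1% of protein-coding ones. Of 33 E2F-type matches in the members, 1 shared a base with CCAAT and none with GGGCGG. These are matches of letters in a window of a newer assembly than the rn6 build named for the counts, and no binding was measured.

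The promoters of the 3 members with the smallest adjusted p and of Pcna, whose mRNA was level between the groups, are shown 5′ to 3′ on the gene's strand, with E2F-type letters and CCAAT boxes of either strand in capitals. They lie on the minus strand of GRCr8, Mcm7 at chr12:22163129-22163428, Cdc7 at chr14:2969607-2969906, Pola1 at chrX:62342306-62342605 and Pcna at chr3:139955771-139956070.
Mcm7: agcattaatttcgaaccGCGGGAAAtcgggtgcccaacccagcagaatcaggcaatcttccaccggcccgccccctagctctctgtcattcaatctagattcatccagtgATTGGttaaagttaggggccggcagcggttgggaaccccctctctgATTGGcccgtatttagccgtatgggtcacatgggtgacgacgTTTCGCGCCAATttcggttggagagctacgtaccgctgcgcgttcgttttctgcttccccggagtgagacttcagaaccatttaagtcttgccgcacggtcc
Cdc7: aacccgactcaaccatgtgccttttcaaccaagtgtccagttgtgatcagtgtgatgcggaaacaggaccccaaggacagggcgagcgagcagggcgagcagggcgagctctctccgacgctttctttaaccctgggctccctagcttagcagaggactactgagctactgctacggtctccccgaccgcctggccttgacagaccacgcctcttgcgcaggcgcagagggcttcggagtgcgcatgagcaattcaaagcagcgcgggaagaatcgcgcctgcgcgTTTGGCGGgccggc
Pola1: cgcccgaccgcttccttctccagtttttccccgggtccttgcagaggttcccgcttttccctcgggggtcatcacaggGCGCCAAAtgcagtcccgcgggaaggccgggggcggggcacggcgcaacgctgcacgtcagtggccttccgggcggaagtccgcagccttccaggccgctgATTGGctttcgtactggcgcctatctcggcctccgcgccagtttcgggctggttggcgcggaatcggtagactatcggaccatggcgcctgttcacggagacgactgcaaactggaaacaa
Pcna: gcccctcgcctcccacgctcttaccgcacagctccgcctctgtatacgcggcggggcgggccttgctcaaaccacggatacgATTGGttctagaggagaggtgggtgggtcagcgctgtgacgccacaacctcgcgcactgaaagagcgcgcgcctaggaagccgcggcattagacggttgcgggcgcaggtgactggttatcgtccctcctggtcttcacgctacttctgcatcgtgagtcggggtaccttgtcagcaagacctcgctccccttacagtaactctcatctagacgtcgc
The Mcm7 promoter held TTTCGCGC at -52 to -45 relative to the annotated start, counted as 0, and the last base of that match was the first base of a CCAAT box at -45 to -41. It held a further E2F-type match on the other strand at -233 to -226 and a pair of CCAAT boxes on the other strand, from -140 and from -94. In the Cdc7 promoter TTTGGCGG lay after the start, at 36 to 43, and no CCAAT box was found. In the Pola1 promoter the E2F-type match lay on the other strand at -172 to -165 and a CCAAT box on the other strand at -71 to -67. The Pcna window held 1 CCAAT box and none of the E2F-type letters searched.

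Among the 9 genes of origin recognition and licensing, 3 were higher: Gmnn, Cdc6 and Orc6. Gmnn (ENSRNOG00000018782), which encodes geminin, the inhibitor that binds CDT1, had 2334, 2423, 2601, 2356 and 2332 normalized counts in iAs replicates 1 to 5, against 2035, 1599, 1912 and 1804 in untreated replicates 1 to 4. All 5 iAs libraries lay above all 4 untreated libraries, and the log2 difference was 0.40 ± 0.07 (SE), with a limma adjusted p of 0.0017. Cdc6 (ENSRNOG00000027787), whose product helps load the helicase, had 829.0, 828, 956, 734 and 748 normalized counts in the iAs libraries, against 683, 623, 663 and 612 in the untreated libraries. The groups did not overlap, and the log2 difference was 0.34 ± 0.09 with a limma adjusted p of 0.0137. Orc6 (ENSRNOG00000024043), the smallest subunit of the origin recognition complex, had 1849, 2237, 1939, 1903 and 2018 normalized counts in the iAs libraries, against 1769.8, 1338, 1630.1 and 1733 in the untreated libraries. Those groups were also apart, with a log2 difference of 0.30 ± 0.09 and a limma adjusted p of 0.0218.

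The other subunits of the origin recognition complex did not pass the test. Orc1, Orc3 and Orc5 had positive log2 differences of 0.17, 0.16 and 0.16, and Orc2 and Orc4 had negative ones of -0.02 and -0.13. The ratio of Orc6 to Orc2 within a library was 1.40 to 1.88 in the iAs libraries and 1.24 to 1.47 in the untreated libraries, so the ranges overlapped. Cdt1, the loading factor that geminin restrains, had 2142, 2696, 2229.7, 2183 and 2358 normalized counts in the iAs libraries, against 2004, 1831, 1732 and 2411 in the untreated libraries. Untreated replicate 4 lay above 4 of the 5 iAs libraries, and the log2 difference of 0.23 ± 0.10 had a limma adjusted p of 0.106, which was 0.016 without untreated replicate 4. The library codes in the labels have 3 endings, found in both groups, and the labels do not say what these stand for. Among libraries with the same ending, each iAs library lay above each untreated one, and with the ending as a covariate over all 9 libraries Cdt1 passed, at a limma adjusted p of 0.00955. The ratio of Gmnn to Cdt1 within a library overlapped between the groups, at 0.899 to 1.17 in the iAs libraries and 0.748 to 1.104 in the untreated libraries.

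The MCM helicase is a ring of 6 related subunits, Mcm2 to Mcm7, and 3 of them were higher. Mcm7 (ENSRNOG00000001349) had 11575, 13929.8, 12118, 12325 and 11985 normalized counts in iAs replicates 1 to 5, against 6974, 5703, 6734 and 6999.9 in untreated replicates 1 to 4. The lowest iAs library was far above the highest untreated library, and the 4 untreated libraries spanned a narrow range apart from replicate 2. The log2 difference was 0.91 ± 0.07 (95% interval 0.75 to 1.07), a 1.88-fold higher level with a limma adjusted p of 7.72e-06. Mcm6 (ENSRNOG00000003703) had 11173, 12134, 11862, 11335 and 11174 normalized counts in the iAs libraries, against 10154, 8749, 9620.4 and 9943 in the untreated libraries, again without overlap. Its log2 difference was 0.26 ± 0.05, with a limma adjusted p of 0.00344. Mcm3 (ENSRNOG00000012543) had 6348, 6731, 6690.1, 5751 and 6095 normalized counts in the iAs libraries, against 5809, 5176, 5148 and 5889 in the untreated libraries. Here iAs replicate 4 lay below untreated replicates 1 and 4, and the log2 difference of 0.20 ± 0.06 had a limma adjusted p of 0.0346. That call was lost without any of 5 libraries (iAs replicates 1, 2 and 3, untreated replicates 2 and 3), with limma adjusted p-values between 0.060 and 0.109.

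The remaining subunits of the ring were level. Mcm2, Mcm4 and Mcm5 had log2 differences of 0.05, 0.01 and -0.01, with 95% intervals that all lay within -0.14 to 0.17. Within a library the ratio of Mcm7 to Mcm2 was 1.14 to 1.33 in the iAs libraries and 0.628 to 0.706 in the untreated libraries. The ratio of Mcm7 to Mcm6, the other clearly higher subunit, was 1.02 to 1.15 in the iAs libraries and 0.652 to 0.704 in the untreated libraries. These ratios are of normalized counts not corrected for transcript length, so they compare the groups and not the subunits, and they carry no test because the pairs were chosen after the values were seen. All 5 ratios of Mcm7 to another subunit were apart between the groups.

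**Figure D3:**
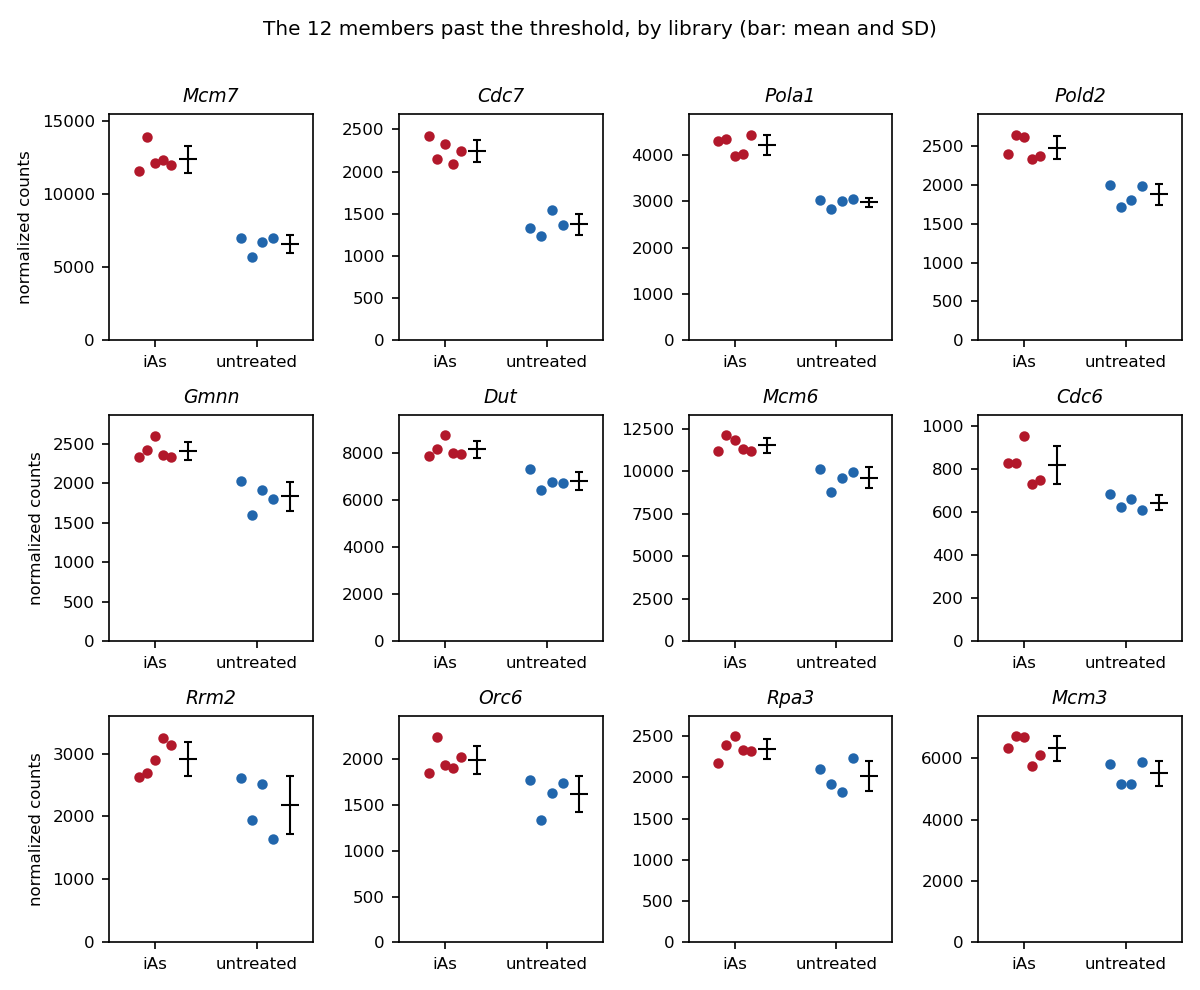
Normalized counts (y axis, from 0) in each iAs library (red, left) and each untreated library (blue, right) for the 12 replication genes past the threshold, in order of adjusted p, with the mean and SD of each group in black. Mcm7 and Cdc7 show wide gaps between the groups, while Rpa3 and Mcm3 overlap.

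Helicase activation and origin firing was represented by 8 genes, of which Cdc7 was higher and the others did not pass. Cdc7 (ENSRNOG00000002105), the kinase that phosphorylates loaded MCM rings, had 2422, 2146, 2321, 2092 and 2249 normalized counts in the iAs libraries, against 1332, 1239, 1548 and 1368 in the untreated libraries. The groups were well apart, and the log2 difference was 0.71 ± 0.07 (95% interval 0.55 to 0.87), a 1.64-fold higher level with a limma adjusted p of 4.22e-05. Dbf4, the regulatory partner that CDC7 needs for its activity, had a log2 difference of 0.03 (95% interval -0.14 to 0.21). The ratio of Cdc7 to Dbf4 within a library was 1.43 to 1.85 in the iAs libraries and 0.927 to 1.22 in the untreated libraries, without overlap.

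The helicase partners themselves did not pass the test. Mcm10, which helps open the duplex, had 1313, 1395, 1353, 1099.6 and 1185 normalized counts in the iAs libraries, against 1117, 1131, 1040.1 and 1094 in the untreated libraries. Replicates 1, 2, 3 and 5 of the iAs libraries lay above every untreated library and replicate 4 did not, and the log2 difference of 0.21 ± 0.08 had a limma adjusted p of 0.068, which was 0.023 without iAs replicate 4 and 0.0331 with the code ending as a covariate. Gins1 had 1132, 1128, 1149.8, 1111 and 1054 normalized counts in the iAs libraries, against 1110.3, 993, 993 and 1067 in the untreated libraries. Its values overlapped between the groups, with a log2 difference of 0.10 and a limma adjusted p of 0.267. Gins2, Gins3, Gins4 and Cdc45 had log2 differences of 0.02, -0.13, -0.05 and 0.06, so the 4 GINS subunits lay on both sides of 0.

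None of the 6 genes of the sliding clamp and its loader was called. Pcna, which encodes the ring that tethers polymerases to DNA and is a common marker of proliferation, had 12782, 14578, 13921, 12759.6 and 13468 normalized counts in the iAs libraries, against 13768, 10896, 13383 and 14345 in the untreated libraries. The groups overlapped and untreated replicate 2 was the lowest of all 9 libraries, with a log2 difference of 0.05 (95% interval -0.12 to 0.22). Rfc5 had 4628, 5589.6, 5085, 5230.2 and 5359.7 normalized counts in the iAs libraries, against 5068, 4399, 4916 and 5049 in the untreated libraries. Rfc2 had 4707, 4773, 4964, 5109.5 and 5117 normalized counts in the iAs libraries, against 5725, 4815, 5263 and 4786 in the untreated libraries. Both overlapped between the groups, at log2 differences of 0.09 and -0.06 with limma adjusted p-values of 0.318 and 0.513. Rfc1, Rfc3 and Rfc4, further subunits of the loader, had log2 differences of 0.0043, 0.03 and 0.04.

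Of the 9 genes of the replicative polymerases and primase, Pola1 and Pold2 were higher. Pola1 (ENSRNOG00000013322), the catalytic subunit of polymerase alpha, which extends RNA primers, had 4298, 4339, 3964, 4022 and 4435 normalized counts in the iAs libraries, against 3034, 2838, 3010.3 and 3039 in the untreated libraries. The 2 groups were far apart relative to their spread, and the log2 difference was 0.50 ± 0.05, a 1.41-fold higher level with a limma adjusted p of 5.00e-05. Pold2 (ENSRNOG00000014098), an accessory subunit of polymerase delta, had 2406, 2651, 2624, 2342 and 2377 normalized counts in the iAs libraries, against 2003, 1720.0, 1809 and 1989 in the untreated libraries. It did not overlap between the groups, and the log2 difference was 0.40 ± 0.07 with a limma adjusted p of 9.43e-04.

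The partners of both subunits did not pass the test. Pola2, Prim1 and Prim2, which complete the polymerase alpha and primase complex, had log2 differences of 0.10, -0.04 and -0.07. The ratio of Pola1 to Prim1 was 0.365 to 0.422 in the iAs libraries and 0.257 to 0.286 in the untreated libraries, and the ratios of Pola1 to Pola2 and to Prim2 were also apart. The ratio of Pold2 to Pold3 was apart as well, at 0.842 to 1.00 in the iAs libraries and 0.639 to 0.714 in the untreated libraries, while that of Pold2 to Pold1 overlapped, at 1.01 to 1.41 in the iAs libraries and 0.905 to 1.18 in the untreated libraries. Pold3 had a log2 difference of 0.03, and Pold1, the catalytic subunit of polymerase delta, had 2384, 1883, 2375, 1723 and 2023 normalized counts in the iAs libraries, against 1773, 1901, 1578 and 1687 in the untreated libraries. In the iAs group replicates 1 and 3 were high and the others lay among the untreated values or just above them, with a log2 difference of 0.25 ± 0.10 and a limma adjusted p of 0.0787. Pole, the catalytic subunit of polymerase epsilon, had 4591, 3723, 4657, 3302 and 3649.8 normalized counts in the iAs libraries, against 3495, 3198, 3565 and 2907 in the untreated libraries. The same iAs replicates 1 and 3 were the highest, and the log2 difference of 0.27 ± 0.10 had a limma adjusted p of 0.074. Without iAs replicate 4, Pold1 and Pole passed, at limma adjusted p-values of 0.026 and 0.028, and Pold1 also passed with the code ending as a covariate, at 0.0382. Pole2 had a log2 difference of 0.03.

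Single-strand binding and Okazaki fragment maturation held 6 genes and 1 call. Rpa3 (ENSRNOG00000008309), the smallest subunit of RPA, had 2169.6, 2392, 2501, 2336 and 2319 normalized counts in the iAs libraries, against 2105, 1920.0, 1827 and 2228 in the untreated libraries. Untreated replicate 4 lay above iAs replicate 1, and the log2 difference of 0.22 ± 0.07 had a limma adjusted p of 0.0333. The call was lost without any of 6 libraries (iAs replicates 2, 3, 4 and 5, untreated replicates 2 and 3), at limma adjusted p-values of 0.056 to 0.112. Rpa1 had 3142, 3982, 3343, 2805 and 3139 normalized counts in the iAs libraries, against 3268, 2738, 3118 and 3213 in the untreated libraries. Its iAs replicate 2 was high and the rest overlapped, with log2 differences of 0.08 for Rpa1 and -0.02 for Rpa2.

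Fen1 (ENSRNOG00000020531), the nuclease that trims flaps between Okazaki fragments, was the member with the lowest difference. It had 8845, 8049, 9398, 9247 and 9285 normalized counts in the iAs libraries, against 11182, 9194, 10617 and 9791 in the untreated libraries. Untreated replicate 2 fell among the iAs values while the other 3 untreated libraries lay above all of them. The log2 difference was -0.18 ± 0.07 with a limma adjusted p of 0.0576, which was 0.021 without untreated replicate 2 and 0.0175 with the code ending as a covariate. Lig1, the ligase that seals the fragments, had 8519, 8127, 8675, 7319 and 7575 normalized counts in the iAs libraries, against 7419, 7456, 7217 and 7996 in the untreated libraries. These overlapped, with log2 differences of 0.09 for Lig1 and 0.09 for Rnaseh2a, a subunit of the enzyme that removes RNA primers.

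Deoxynucleotide supply held 5 members, of which Dut and Rrm2 were higher. Dut (ENSRNOG00000007221), the dUTPase that keeps uracil out of DNA, had 7899.9, 8180.5, 8789, 8028 and 7989 normalized counts in the iAs libraries, against 7352, 6456, 6770.4 and 6720.4 in the untreated libraries. The groups were apart, with a log2 difference of 0.26 ± 0.05 and a limma adjusted p of 0.00307. Rrm2 (ENSRNOG00000054286), the small subunit of ribonucleotide reductase that limits its activity in S phase, had 2624, 2694, 2891, 3243 and 3136 normalized counts in the iAs libraries, against 2611, 1947, 2510.1 and 1643 in the untreated libraries. The untreated values were widely spread and their highest library lay just below the lowest iAs library, with a log2 difference of 0.44 ± 0.13 and a limma adjusted p of 0.0194 that was 0.052 without untreated replicate 2. Rrm2 also overlaps the protein-coding gene Cys1 in the RefSeq annotation, and the labels do not say whether counting used strand. In that annotation 15 members overlap another gene and 7 a protein-coding one, Rrm2 alone among the called.

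The other members of this group did not pass the test. Rrm1, the large subunit of ribonucleotide reductase, had the highest mean of all members and a log2 difference of -0.01 (95% interval -0.17 to 0.15). The ratio of Rrm2 to Rrm1 was 0.167 to 0.190 in the iAs libraries and 0.101 to 0.140 in the untreated libraries. Tk1, the thymidine kinase of dividing cells, had 9451, 8375, 10308, 9337 and 10043 normalized counts in the iAs libraries, against 10082, 8322, 9039.9 and 7288 in the untreated libraries. Tk1 overlapped between the groups at a log2 difference of 0.14 with a limma adjusted p of 0.275, and Tyms, thymidylate synthase, had a log2 difference of 0.08. Rrm2b, the reductase subunit induced by p53 and no member here, was at 147 ± 25.3 normalized counts in the iAs libraries and 142 ± 29.8 in the untreated libraries, with a log2 difference of 0.05 and a limma adjusted p of 0.868.

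For the 37 members not called, the 95% intervals of the log2 difference lay between -0.40 and 0.49 over all of them, and 26 had an interval within 0.3 of 0. Of these 37 members, 26 were positive and 11 negative. Mcm7, Cdc7, Pola1, Pold2 and Gmnn kept their calls under each of the 21 other settings tried. Among the libraries with the code ending 52, 3 iAs and 2 untreated, 5 members were higher and 1 lower. The median member difference there was 0.01, with 26 of 49 positive. Over all genes tested, the same libraries gave 1528 higher, or 10.6%, and 1429 lower. That setting keeps 1 code and also leaves out 4 of the 9 libraries, so the part of each in the smaller counts cannot be told apart. With the ending as a covariate over all 9 libraries, 15 members were higher and 1 lower. Over all genes tested, that covariate gave 2681 higher and 2597 lower, against 2181 and 2140 without it.

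Further genes of the same pathway were more often higher than lower. Other firing and fork genes, other deoxynucleotide genes, chromatin assembly factors and checkpoint genes formed 4 lists. Of their 91 tested genes, 23 were higher and 5 lower, with a median log2 difference of 0.09. That is 30.8% called, close to the 30.0% of all genes tested. Of the listed genes 25.3% were higher and 5.5% lower, against 15.1% and 14.9% of all genes tested. Among 33 other firing and fork genes, 9 were higher and 1 lower. Top2a, which unlinks sister DNA molecules, was at 20563 ± 1176 normalized counts in the iAs libraries and 15918 ± 1173 in the untreated libraries (SD, n = 5 and 4), a log2 difference of 0.37. Tipin, of the fork protection complex, was at 759.5 ± 63 in the iAs libraries and 559.6 ± 24.7 in the untreated libraries, a log2 difference of 0.44, and Mcmdc2, a relative of the MCM proteins, had a log2 difference of 0.31. The limma adjusted p-values of the 3 genes were 9.92e-04, 0.00229 and 0.0036.

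Among 23 other deoxynucleotide genes, 9 were higher and 2 lower, or 47.8% called against 30.0% of all genes tested. Their median log2 difference was 0.11. The 2 lower were Dtymk, thymidylate kinase, and Tk2, the mitochondrial thymidine kinase, at log2 differences of -0.32 and -0.32 with limma adjusted p-values of 0.00469 and 0.021. Ctps1, CTP synthase, was at 4954 ± 315 normalized counts in the iAs libraries and 2836 ± 168 in the untreated libraries, a log2 difference of 0.80 with a limma adjusted p of 5.91e-06. Impdh2, which opens guanine nucleotide synthesis, and Cad, which opens pyrimidine synthesis, had log2 differences of 0.62 and 0.61 with limma adjusted p-values of 2.71e-04 and 3.17e-04. These 3 enzymes serve RNA synthesis as well as DNA synthesis.

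Chromatin assembly behind the fork gave 4 of 14 genes higher and none lower, or 28.6% called against 30.0% of all genes tested. They included the histone chaperone gene Nasp, the DNA methylation maintenance gene Uhrf1 and the histone-binding gene Rbbp4, at log2 differences of 0.27, 0.23 and 0.25 with limma adjusted p-values of 0.00145, 0.0176 and 0.0182. Checkpoint and fork protection gave 1 of 21 higher and 2 lower, or 14.3% called, close to level with a median of 0.01. Rad9a and Rad1 encode partners in the same checkpoint clamp, yet Rad9a was lower at -0.44 and Rad1 higher at 0.33, with limma adjusted p-values of 0.00399 and 0.0377. Bard1, the partner of BRCA1, was lower at -0.29 with a limma adjusted p of 0.0346. Among 12 translesion and repair polymerase genes 1 was higher, Poll at 0.31 with a limma adjusted p of 0.00965, while Rev3l and Mad2l2 at 0.22 and -0.19 did not pass. Of 9 mitochondrial replication genes Lig3 was higher at 0.38 and Ssbp1 lower at -0.27, with limma adjusted p-values of 0.00653 and 0.0338. Top1mt at 0.20 did not pass. The translesion and mitochondrial lists had 8.3% and 22.2% of their genes called, also under the share of all genes tested.

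The neighbouring cell cycle groups were set beside the replication genes as a description, without a test of the difference. Of 29 mitosis and spindle genes, 12 were higher and none lower, or 41.4% called against 30.0% of all genes tested. The median log2 difference was 0.13. Bub1b and Bub1 of the spindle checkpoint and the kinesin family gene Kif2c were higher by 0.43, 0.41 and 0.40. They were the 3 genes of this list with the smallest limma adjusted p-values, 4.67e-04, 0.00103 and 0.00136. Of 25 tested genes of the G1 cyclins, their kinases and the RB-E2F pathway, 7 were higher and 2 lower, or 36% called. Their log2 differences spanned -0.82 to 0.55, with a median of 0.13, so the largest difference of this list was negative. Tfdp1, the partner that E2F factors bind DNA with, was at 14902 ± 229 normalized counts in the iAs libraries and 11892 ± 409 in the untreated libraries, a log2 difference of 0.33. Cyclin E1, encoded by Ccne1 and active at the start of S phase, and cyclin D2, encoded by Ccnd2, had log2 differences of 0.46 and 0.55. The limma adjusted p-values of Tfdp1, Ccne1 and Ccnd2, named because they were the smallest of this list, were 1.97e-04, 0.00168 and 0.00281.

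**Figure D4:**
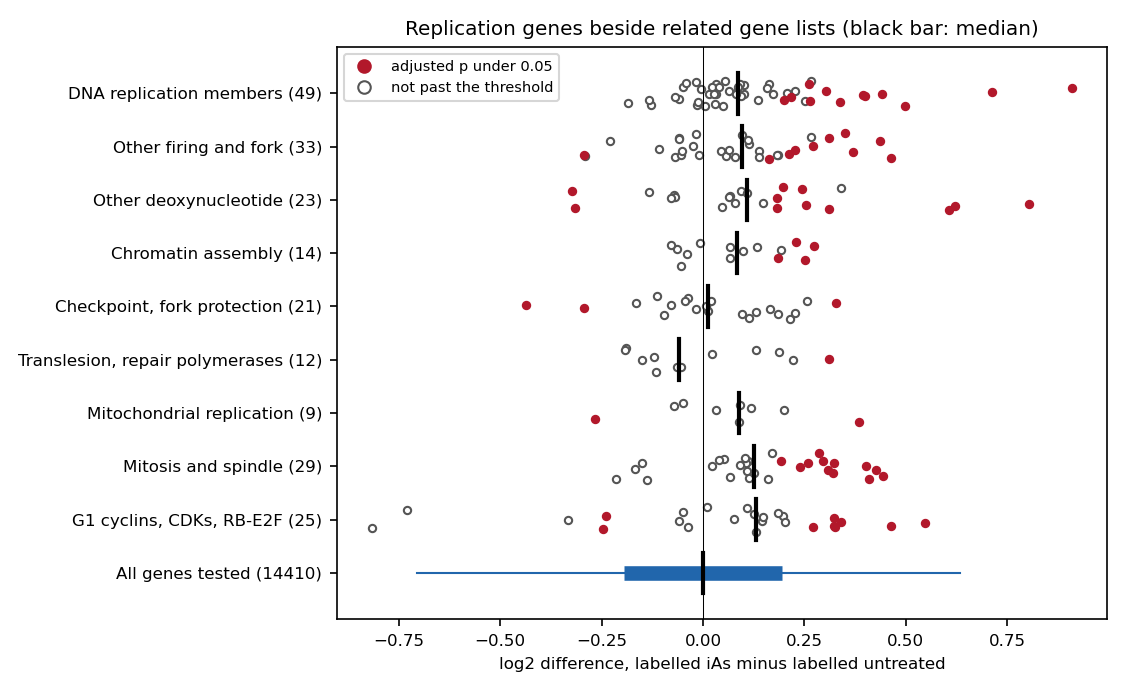
Log2 differences (x axis, iAs minus untreated) of the 49 replication genes, of 8 lists of related genes and of all 14410 genes tested (blue, box from the lower to the upper quartile and line over the middle 90% of genes); filled points are past the threshold and black bars are medians. The members' median of 0.09 and the medians of 0.13 of the mitosis and G1 lists lie right of the median of all genes, which is at 0.

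Mcm7 carries, within its span and on the same strand, the hairpins of miR-106b, miR-93 and miR-25, so its locus could also be followed in the small RNA libraries. MicroRNAs are short RNAs that repress mRNAs they pair with through the seed, bases 2 to 8 of the mature strand, and these come from the same primary transcript as Mcm7. The mature strands from RefSeq (GRCr8) are shown with the seed in capitals, beside relatives from other loci that share it.
rno-miR-93-5p: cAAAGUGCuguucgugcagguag
rno-miR-106b-5p: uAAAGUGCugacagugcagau
rno-miR-17-5p: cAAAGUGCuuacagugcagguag
rno-miR-20b-5p: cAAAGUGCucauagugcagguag
rno-miR-25-3p: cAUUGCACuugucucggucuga
rno-miR-92b-3p: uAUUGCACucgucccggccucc
rno-miR-363-3p: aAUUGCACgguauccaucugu
rno-miR-106b-3p: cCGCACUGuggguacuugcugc
The 5p strands of miR-93 and miR-106b share the seed AAAGUGC with miR-17-5p and miR-20b-5p, and miR-25-3p shares AUUGCAC with miR-92b-3p and miR-363-3p. MiR-106b-3p has the seed CGCACUG, and relatives with that seed were not searched for. The mature strands lie on the minus strand at chr12:22156894-22156916 for miR-93-5p, chr12:22157103-22157123 for miR-106b-5p and chr12:22156652-22156673 for miR-25-3p.

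The small RNA values are RPMMM, reads scaled by the authors to the total mapped to microRNAs in a library, and differences are on the log2(RPMMM + 1) scale from 1 limma fit of the 4 groups over 523 rows. The 3 metals were each set against the same 3 untreated libraries, so their differences share that error. Of the 6 mature arms encoded within Mcm7, 3 were lower in iAs libraries, 2 in Cd libraries and none in Mn libraries, and none was higher in any. Among all rows tested, 5.74% were lower with iAs, 6.88% with Cd and 4.97% with Mn. MiR-25-3p had 19169, 18882 and 18957 RPMMM in the iAs libraries, 20113, 20084 and 20631 in the Cd libraries and 21287, 22609 and 21665 in the Mn libraries, against 23056, 22808 and 22465 in the untreated libraries. The iAs and Cd values all lay below the untreated ones, and the Mn values overlapped them. The log2 difference was -0.26 ± 0.04 with iAs (limma adjusted p 0.00115), -0.17 with Cd (0.0286) and -0.06 with Mn (0.372).

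MiR-93-5p showed the same order of groups. It had 11846, 14706 and 11756 RPMMM in the iAs libraries, 13744, 13367 and 12453 in the Cd libraries and 15716, 15299.8 and 15052 in the Mn libraries, against 16377, 16431 and 15596 in the untreated libraries. Replicate 2 of the iAs libraries was closer to the untreated level than the other iAs libraries, but all iAs and Cd values lay below all untreated ones. The log2 difference was -0.35 ± 0.08 with iAs (limma adjusted p 0.0117), -0.29 with Cd (0.0329) and -0.07 with Mn (0.569). Without iAs replicate 1 or 3 or untreated replicate 2 the iAs difference of miR-93-5p missed the threshold, at limma adjusted p-values of 0.066, 0.067 and 0.054. The Cd calls of both microRNAs were lost without several single libraries, such as untreated replicate 1, at limma adjusted p-values of 0.110 for miR-25-3p and 0.121 for miR-93-5p.

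The other strands of the locus were less clear. MiR-106b-3p had 1993, 1973 and 1949 RPMMM in the iAs libraries, against 2161, 2317 and 2419.7 in the untreated libraries, and its log2 difference of -0.22 had a limma adjusted p of 0.0403, which passed in 5 of 17 other settings. MiR-106b-5p had 1391, 1922 and 1434 RPMMM in the iAs libraries, against 2407, 1944 and 1854 in the untreated libraries. Its log2 difference of -0.39 did not pass, with a limma adjusted p of 0.0587. The minor strands miR-25-5p and miR-93-3p were low, with means of 93.5 ± 14.1 and 39.6 ± 2.79 RPMMM in the iAs libraries, against 86.5 ± 22.4 and 45.2 ± 1.94 in the untreated libraries (SD, n = 3 each), and were not called. MiR-25-5p had positive log2 differences of 0.13 with iAs, 0.22 with Cd and 0.45 with Mn. Its Mn values, 114, 117 and 117 RPMMM, lay above all untreated values. The limma adjusted p with Mn was 0.154, and 0.0456 without untreated replicate 3.

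Summed over all rows of the locus, including forms with shifted ends, the hairpins within Mcm7 held 3.49% to 3.83% of microRNA reads in the iAs libraries, 3.75% to 3.86% in the Cd libraries and 4.19% to 4.33% in the Mn libraries, against 4.32% to 4.49% in the untreated libraries. Every iAs and Cd library lay below every untreated library. MiR-25-3p and miR-93-5p, at means of 22776 and 16135 RPMMM in the untreated libraries, made up most of the sums there, 43242 to 44895 RPMMM. The sums therefore largely repeat those called rows. In the mRNA libraries Mcm7 was 1.88-fold higher in the group labelled iAs, while the called mature strands of its locus were lower with iAs in the small RNA libraries. The mRNA and small RNA libraries carry separate labels, and Hmox1 and Mt1 went against those of the mRNA. Why Mcm7 mRNA and these strands differed in direction, and whether the mRNA labels have a part in it, was not tested. The mRNA and the small RNA come from different libraries, RPMMM is a share of all microRNA reads, and Mcm7 mRNA was not measured with Cd or Mn. Of the relatives with shared seeds, miR-92b-3p had 1339, 1236 and 1263 RPMMM in the iAs libraries, against 1445, 1725 and 1925 in the untreated libraries, and its log2 difference of -0.40 had a limma adjusted p of 0.0592. MiR-363-3p at -0.05 and miR-20b-5p at -0.07 also missed the threshold, with limma adjusted p-values of 0.717 and 0.653. MiR-17-5p, in 2 rows of the table, had log2 differences of -0.25 and -0.29 with iAs, and neither passed, at limma adjusted p-values of 0.134 and 0.126. MiR-92a-3p, which also has the seed AUUGCAC and 2 rows, had positive log2 differences of 0.11 and 0.07, with limma adjusted p-values of 0.551 and 0.688.

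**Figure D5:**
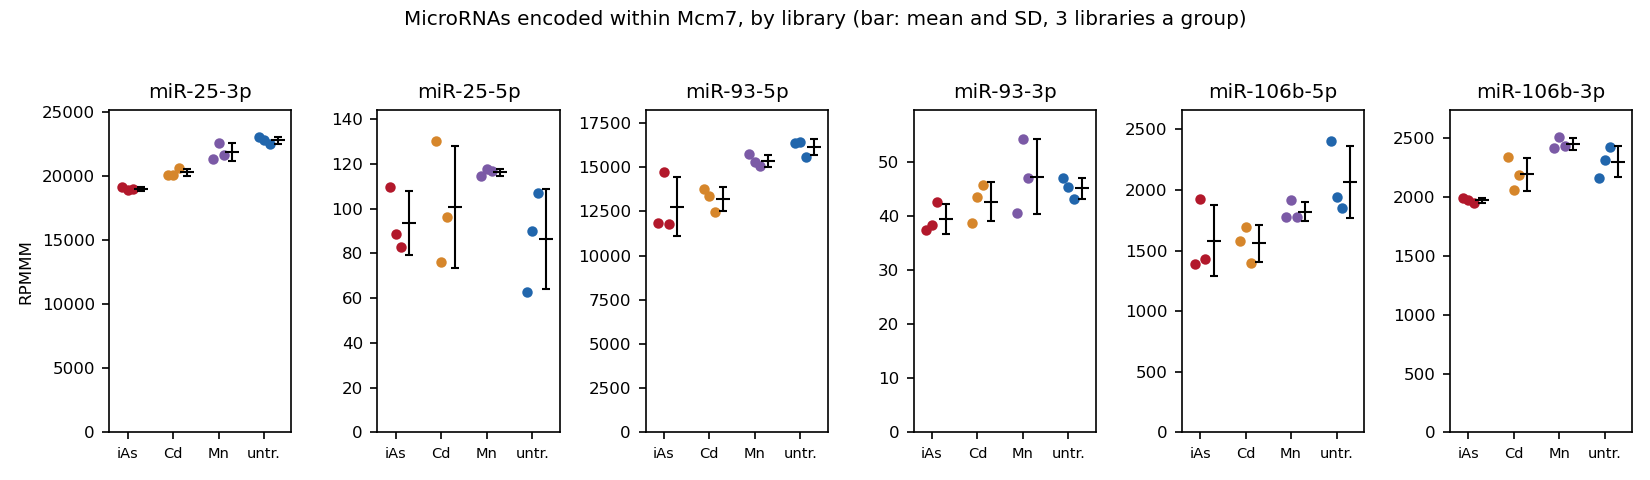
RPMMM (y axis, from 0) of the 6 mature strands encoded within Mcm7 in each library of the iAs, Cd, Mn and untreated groups (3 each, from left to right), with the mean and SD in black. In miR-25-3p and miR-93-5p the iAs and Cd points lie below the untreated points, while the low strands miR-25-5p and miR-93-3p were not called with any metal.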

How the data were processed

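The mRNA values are a signal deposited by the authors, per the labels: gene counts divided by DESeq2 normalization factors, 1 column per library. Small RNA was deposited by the authors as RPMMM, which is an RPM whose total is the reads mapped to microRNAs, per the labels. The submitters' processing notes name DESeq2, STAR, Salmon and the build rn6, without versions. Neither table gave whole reads, so no count test was run, and the depth of the small RNA libraries is not given. Columns were matched by the library code in the description. In 4 mRNA libraries the title gives another code within the same group.

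The groups were compared with limma 3.58.1 (limma-trend, R 4.3.3) on log2(value + 1), two-sided, for genes or rows with a mean of at least 10 (14410 of 32750 genes, 523 of 1186 small RNA rows), with Benjamini-Hochberg adjustment within each comparison and a threshold of 0.05. A difference on this scale understates changes of low genes. Same-numbered libraries were not paired: their deviations correlated between -0.04 and 0.03 in the mRNA. Alternatives changed the pseudocount, filter, scaling, trend, weights, block, library codes and libraries included.

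The members and gene lists were chosen with earlier results of these data known. Per-library values are given for the 3 members with the smallest adjusted p in each role (2 in roles of 3 genes), for members whose call depends on 1 library and for Mcm7. In other lists the 3 genes with the smallest adjusted p and Rrm2b are named. The symbols Dna2, Ccnb2, Pecam1, Amy2a3 and Srxn1 had no row. Sequences are from RefSeq (GRCr8). The metal-response list held 10 genes summing to 17022 to 20259 normalized counts in iAs libraries and 34986 to 40262 in untreated libraries, and 16 beta cell markers summed to 2908828 to 3469066 in iAs libraries and 3145482 to 3624242 in untreated libraries.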

Additional observations from a re-analysis of the deposited data

Results flagged for a closer look

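Each value here was far from the others of its group by Dixon's criterion at the 95% level, which chance meets in about 1 in 20 groups; 8 of 157 groups of values met it, 3 of them among the 98 of the members. The cause was not tested for any. Of the 8, 5 were the lowest value in untreated replicate 2. There Pola1 was at 2838 normalized counts (the other untreated libraries at 3010.3 to 3039), Gins3 at 1148 (1480.0 to 1506) and Pold3 at 2412 (2788 to 2832). Ctps1 was at 2584 (2903 to 2935) and Rbbp4 at 5328 (6486 to 6675). Tipin was lowest in iAs replicate 4, at 651 normalized counts against 766 to 811 in the other iAs libraries. Ccnd2 was highest in untreated replicate 4, at 2257 against 1739 to 1823 in the other untreated libraries. Alb was at 2.01 in iAs replicate 5 and at 0 in the other iAs libraries.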

How the results depend on the processing

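Of the 252 values of the 12 called members under 21 alternatives, 225 kept their call, 27 missed the threshold and none changed sign. The number of members higher, 12 in the report, was 5 in libraries with the code ending 52 and 9 to 14 with single libraries left out. Of all genes tested, 15.1% were higher in the report, 10.6% with the code ending 52 and 12.2% to 14.3% with single libraries left out. The number lower, 0 in the report (limma, with 17 members at an unadjusted p under 0.05 in either direction), was 1 with equal totals, quantile normalization, array weights, the code ending as a covariate and the code ending 52 only, and 0 to 1 with single libraries left out. Over all genes, equal totals moved the median by -0.03 and the share of calls that were higher to 41.4%, with 10 members higher and 1 lower.

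No numbers paired the libraries (correlations of -0.04 to 0.03 in the mRNA, -0.62 to 0.18 in the small RNA). The replicate block called 1349 genes higher and 1415 lower, against 2181 and 2140 without it. Under the block 9 members were higher and 0 lower, 8 of them among the 12. In the other lists together 44 were higher and 8 lower. These counts became 24 and 3 under the block and 26 higher with the code ending 52 only. The number lower was 5 without the trend, 15 with array weights and 13 with the code ending as a covariate, and 3 to 8 with single libraries left out.

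Of the arms in Mcm7, the number lower with iAs, 3 in the report, was 1 in a fit of the compared groups alone and 1 to 4 with single libraries left out. With Cd, 2 in the report, it was 0 without the filter and in a fit of the compared groups alone, and 0 to 3 with single libraries left out. The number higher with Mn was 0 to 1 with single libraries left out.

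In all, 17 members that were not called changed sign, all to within 0.08 of 0. Array weights gave log2 differences of Rfc1 -0.0172 and Pold3 -0.0184. The code ending 52 alone gave log2 differences of Mcm4 -0.0207, Dbf4 -0.00864, Cdc45 -0.0338, Pcna -0.0624, Rfc1 -0.0355, Rfc3 -0.0708, Rfc4 -0.0763, Pola2 -0.0781, Pold3 -0.045, Pole2 -0.0286, Rpa1 -0.0778 and Rnaseh2a -0.0064. The code ending as a covariate gave a log2 difference of Mcm5 0.00196. Equal totals gave log2 differences of Mcm4 -0.0199, Dbf4 -0.00093, Gins2 -0.0124, Rfc1 -0.0294, Rfc3 -0.00136, Pold3 -0.00337 and Pole2 -0.00523. The replicate block gave log2 differences of Mcm5 0.000407 and Rpa2 0.00115. With single libraries left out, the differences that changed sign ranged over Dbf4 -0.0227 to 0.0732, Gins2 -0.0219 to 0.0525, Mcm4 -0.0185 to 0.0409, Mcm5 -0.0459 to 0.0308, Orc2 -0.0684 to 0.0422, Pcna -0.0362 to 0.0961, Pold3 -0.0246 to 0.0526, Pole2 -0.0205 to 0.0942, Rfc1 -0.0232 to 0.0289, Rfc3 -0.00294 to 0.0667, Rfc4 -0.0445 to 0.0879, Rpa2 -0.0937 to 0.0243, Rrm1 -0.0862 to 0.0371, miR-25-5p (iAs) -0.079 to 0.302 and miR-93-3p (Mn) -0.0468 to 0.159.
The cause of these changes was not tested.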
